A study of Saccharomyces cerevisiae with 6 samples.

Results

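The inositol and phospholipid synthesis genes of budding yeast (Saccharomyces cerevisiae) described here are 10 open reading frames (ORFs): INO1, INO2, INO4, OPI1, OPI3, CHO1, CHO2, ITR1, PSD1 and CKI1. They were chosen by name, with the measured difference of INO1 between the mutants known, from 5791 genes that had a value in a table of strand-specific RNA coverage. All 10 had a value and passed the filter on low values, which left 5211 genes for testing. The table holds 6 libraries of polyadenylated RNA in 3 groups of 2, all from cells growing exponentially in the rich medium YPD. The hst3 hst4 strain lacks both histone deacetylase genes HST3 and HST4 (Δhst3::HygMX, Δhst4::NatMX) and is labelled MATalpha, with ade2-1::ADE2, the tagged RNA polymerase II subunit Rpb3-3HA::TRP and Δbar1::HIS3. The rtt109 strain lacks the histone acetyltransferase gene RTT109 (Δrtt109::Kan) and is labelled MATa ade2-1, GAL psi+ RAD5+, with Δbar1::His3 and with neither the ADE2 insertion nor the Rpb3 tag. The wild type is labelled MATa, with ade2-1::ADE2, Rpb3-3HA::TRP and Δbar1::HIS3. All strains carry thymidine kinase and nucleoside transporter cassettes (URA3::GDP-TK(7x) with AUR1c::ADH-Hent1, spelled AUR1c::ADH-hENT1 for rtt109) and the marker alleles trp1-1, ura3-1, can1-100, leu2-3 112 and his3-11 15. By the labels, the wild type is a control for the deletions of HST3 and HST4 apart from mating type. The a-cell transcripts given below go against the MATalpha label of hst3 hst4. The rtt109 strain differs from the wild type also at ADE2 and the Rpb3 tag, and the effects of these differences and of the RTT109 deletion cannot be told apart. Nothing in the labels says that the libraries of a group came from separate cultures, so p-values measure the spread between these libraries, which may be technical.

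Inositol is made in yeast from glucose 6-phosphate by Ino1 or taken up from the medium, and is joined to CDP-diacylglycerol to give phosphatidylinositol. CDP-diacylglycerol also feeds phosphatidylserine, phosphatidylethanolamine and phosphatidylcholine, and a separate (Kennedy) route makes the last pair from ethanolamine and choline. Many of these genes share an upstream element read by the activator pair Ino2 and Ino4, which the repressor Opi1 holds back when inositol is plentiful. INO1 is the classic target of this circuit and is nearly silent in cells that are well supplied with inositol. Hst3 and Hst4 remove the acetyl group that Rtt109, with a histone chaperone, places on a core lysine of newly made histone H3.

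The summed coverage, scaled by the authors to RNA of fission yeast (Schizosaccharomyces pombe) added to each sample, ranged over the 6 libraries between 4.7428e+05 and 7.8468e+05 (arbitrary units), with the lowest sum in rtt109 replicate 1. The table gives no read counts, so the read depth is unknown. The most frequent bin value above 0 differed between libraries, from 0.00397 in wild type replicate 1 to 0.0124 in hst3 hst4 replicate 2. How far this follows read depth was not tested. Pearson's r between the 2 replicates, across genes on the log2 scale, was 0.951 for hst3 hst4, 0.973 for rtt109 and 0.964 for wild type. The deleted genes were near 0 in their own strains: HST3 had 0.0131 and 0.00999 and HST4 0.0617 and 0.00648 in hst3 hst4, and RTT109 had 0.00123 and 0.00342 in rtt109. BAR1, deleted in every strain, was at 0 in all 6 libraries. The a-cell receptor gene STE2 had 22.6 and 23.4 in hst3 hst4, labelled MATalpha, against 15.5 and 30.2 in wild type. The 6 a-cell markers, of which BAR1 was at 0, summed to 154.8 and 99.6 in hst3 hst4, 47.1 and 56.8 in rtt109 and 99.0 and 112.4 in wild type. The 4 alpha-cell markers summed to 0.849 and 1.04 in hst3 hst4, 0.505 and 0.726 in rtt109 and 0.453 and 0.477 in wild type. Among these, the receptor gene STE3 had 0.0209 and 0.0186 in hst3 hst4, 0.00385 and 0.00329 in rtt109, and 0.00298 and 0.0163 in wild type, and MF(ALPHA)1, a pheromone gene, had 0.327 and 0.345 in hst3 hst4, 0.0582 and 0.0929 in rtt109, and 0.0375 and 0.0271 in wild type. The hst3 hst4 libraries thus held a-cell transcripts at a sum no lower than in either rtt109 library or in wild type replicate 1, which goes against the MATalpha label. MFA2, the largest part of that sum, had 101.1 and 52.7 in hst3 hst4 and 60.5 and 60.0 in wild type. STE6 was lower in hst3 hst4, at 2.90 and 2.40, than in wild type, at 2.98 and 3.83. STE3, MF(ALPHA)1 and MF(ALPHA)2 were highest in hst3 hst4 at low levels. The remaining alpha-cell marker, SAG1, was not, with 0.461 and 0.6085 in hst3 hst4, 0.422 and 0.6099 in rtt109, and 0.397 and 0.403 in wild type. The part of this in the results was not tested. In the table, coverage lay displaced from the ORF labels: it lay 1 to 3 bins of 50 bases off the labels for 92.2% of genes, towards lower positions, with a median offset of -2 bins. On chromosome 10 from table position 123851 on it was about -400 bases, which touches INO1 and OPI3. The cause was not tested, and values of these genes are given both for the labelled bins and for bins moved by the local offset.

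Of the 10 members, 9 hold the hexamer CATGTG, the core of the element that Ino2 and Ino4 bind, on one strand or the other within 300 bases before the start codon, with OPI1 the member that lacks it. In the genome 429 of 6007 such windows hold it (7.14%). The members were chosen by name from a pathway whose genes are known to share this element, so the difference from the genome is no result of these data. The sequences are from the RefSeq assembly R64, positioned by its own annotation. The stretch from base -300 to base -101, counted from the start codon, is shown for INO1 and OPI3, the members with the highest ratio of hst3 hst4 to wild type, and for PSD1, the member with the lowest ratio of rtt109 to wild type. They lie at chr10:136034-136233, chr10:573036-573235 and chr14:317772-317971, all on the minus strand, and are written 5′ to 3′ in the direction of transcription. Capitals mark CATGTG, or CACATG where it lies on the other strand.
INO1: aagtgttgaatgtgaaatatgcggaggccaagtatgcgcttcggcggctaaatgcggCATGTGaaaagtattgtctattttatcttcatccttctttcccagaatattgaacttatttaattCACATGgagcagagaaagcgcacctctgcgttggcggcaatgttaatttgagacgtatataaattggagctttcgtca
OPI3: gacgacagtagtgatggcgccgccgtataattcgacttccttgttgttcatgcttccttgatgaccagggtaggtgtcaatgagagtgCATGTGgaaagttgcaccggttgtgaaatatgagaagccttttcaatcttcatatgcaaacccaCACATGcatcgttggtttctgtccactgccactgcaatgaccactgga
PSD1: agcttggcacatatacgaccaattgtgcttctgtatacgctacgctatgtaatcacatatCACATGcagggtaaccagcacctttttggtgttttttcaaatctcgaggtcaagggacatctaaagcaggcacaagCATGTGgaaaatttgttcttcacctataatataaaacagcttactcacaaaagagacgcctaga
INO1 had CATGTG beginning at base -243 in the direction of transcription and, on the other strand, a second match over bases -178 to -173. OPI3 had matches beginning at -212 in the direction of transcription and at -148 on the other strand, and PSD1 at -240 on the other strand and at -164 in the direction of transcription. INO2 and ITR1 also had 2 matches, those of INO2 overlapping each other, and INO4, CHO1, CHO2 and CKI1 had 1 each. A match is a description of these letters, not a measured binding site.

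INO1 (YJL153C), which encodes the inositol-3-phosphate synthase that makes inositol, was the member with the highest ratio of hst3 hst4 to wild type, and it was chosen for its difference between the mutants, so its values are a description with no test. Its ORF is on the Crick strand of chromosome 10, in bins labelled from 134351 to 135951 on the table's build, which is not named. Mean sense coverage per bin was 0.830 and 1.21 in hst3 hst4, 0.152 and 0.335 in rtt109, and 0.158 and 0.131 in wild type. Both hst3 hst4 libraries stood above the other 4, and the rtt109 libraries lay on both sides of wild type replicate 1. The means were 1.02 ± 0.266 in hst3 hst4, 0.243 ± 0.130 in rtt109 and 0.145 ± 0.0191 in wild type (SD, n = 2 each), so hst3 hst4 was 7.05 times wild type and 4.19 times rtt109, and rtt109 was 1.68 times wild type. On the scale log2(coverage + 0.0587), which understates the change of low genes, the differences were 2.39 for hst3 hst4 minus wild type, 1.88 for hst3 hst4 minus rtt109 and 0.51 for rtt109 minus wild type (SE 0.38 each). The rtt109 difference rested on replicate 2, being 0.96 without replicate 1 and 0.053 without replicate 2. Among all genes tested, INO1 ranked at percentile 30.6 of expression in hst3 hst4, 4.24 in rtt109 and 1.40 in wild type.

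**Figure D1:**
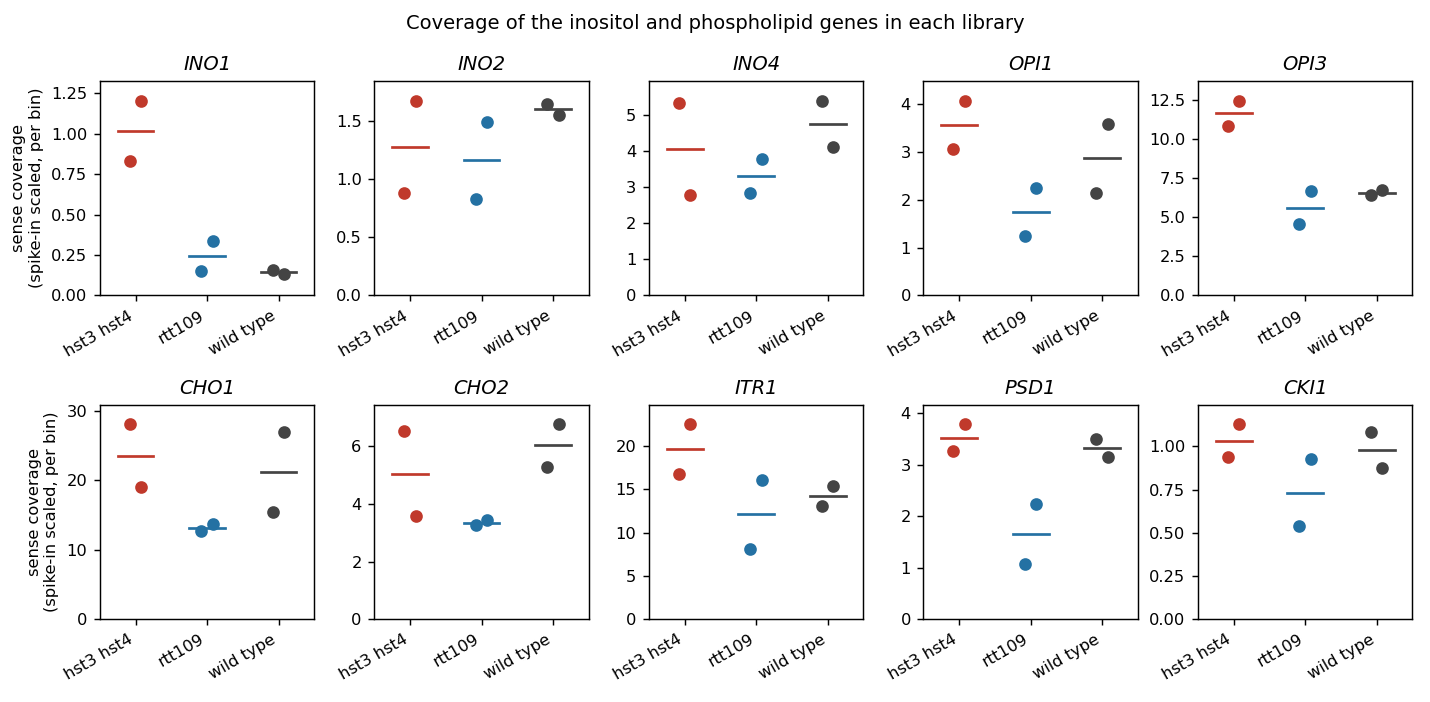
Mean sense coverage per 50-base bin (vertical axis, spike-in scaled, starting at 0, own range for each gene) of the 10 genes in the 6 libraries; points are libraries, lines group means. INO1 stands apart in both hst3 hst4 libraries, at 0.830 and 1.21, above the other 4, and OPI3 likewise at 10.9 and 12.5.

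Moved by the local offset, the INO1 bins held 1.31 and 1.62 in hst3 hst4, 0.219 and 0.478 in rtt109, and 0.201 and 0.172 in wild type. On these bins hst3 hst4 was 7.85 times wild type and 4.21 times rtt109, and both hst3 hst4 libraries were above the other 4 in 31 of 31 bins, against 26 of 31 for the labelled bins. Here and below, the bins of a gene come from the same libraries and are not separate observations. For INO1 this tally also draws on the values by which the gene was chosen, so it is a description. The first labelled bin of INO1 held the tail of a neighbouring block of coverage, with 4.24 and 5.26 in hst3 hst4, 2.24 and 2.89 in rtt109, and 2.57 and 2.79 in wild type, and was left out of the labelled value. In every library the labelled INO1 value, a mean over its bins, was at least 19.7 times the most frequent bin value above 0 in that library. In bulk RNA, more cells with the transcript and more transcript per cell cannot be told apart.

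**Figure D2:**
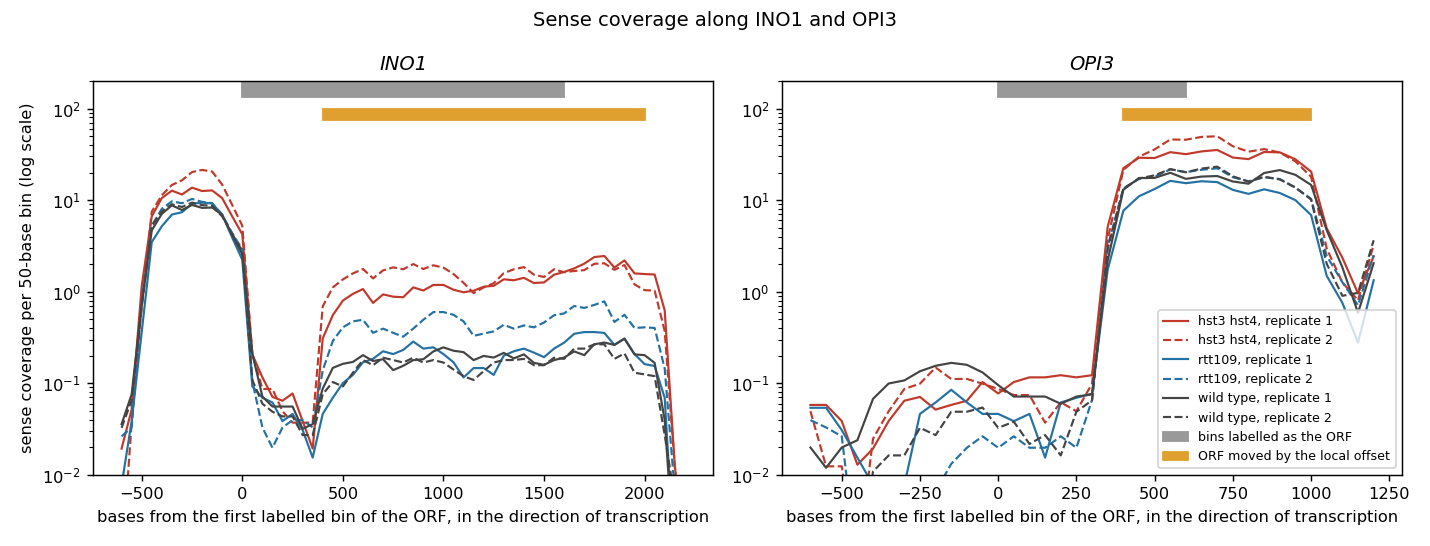
Sense coverage per 50-base bin (vertical log axis) along INO1 and OPI3 against distance in bases from the first labelled bin in the direction of transcription, with solid lines for replicate 1 and dashed lines for replicate 2. The grey bar shows the labelled ORF and the orange bar the ORF moved by the local offset, where both hst3 hst4 lines run above the other 4 in 31 of 31 INO1 bins and 11 of 11 OPI3 bins. Bins of a gene are not separate observations.

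None of the 3 regulators passed the test in either mutant, where 2.48% of all genes passed in hst3 hst4 and 3.44% in rtt109. INO2 (YDR123C, Crick strand of chromosome 4, bins labelled 698601 to 699501) encodes a subunit of the activator and had 0.882 and 1.68 in hst3 hst4, 0.834 and 1.49 in rtt109, and 1.65 and 1.55 in wild type. Both rtt109 libraries lay below both wild type libraries, while those of hst3 hst4 lay on both sides of them, with log2 differences from wild type of -0.38 in hst3 hst4 and -0.50 in rtt109 (SE 0.38). INO4 (YOL108C, Crick strand of chromosome 15, bins 111451 to 111901) encodes the partner of Ino2 and had 5.34 and 2.79 in hst3 hst4, 2.86 and 3.78 in rtt109, and 5.41 and 4.11 in wild type. Here too the rtt109 libraries were below both wild type libraries and those of hst3 hst4 overlapped them, with log2 differences of -0.29 and -0.51 for hst3 hst4 and rtt109. OPI1 (YHL020C, Crick strand of chromosome 8, bins 66251 to 67501) encodes the repressor and had 3.05 and 4.07 in hst3 hst4, 1.25 and 2.24 in rtt109, and 2.14 and 3.59 in wild type. Its groups overlapped with wild type for both mutants, and the log2 differences were 0.34 in hst3 hst4 and -0.71 in rtt109, with adjusted p = 1.00 and 0.282 (limma, Benjamini-Hochberg).

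OPI3 (YJR073C, Crick strand of chromosome 10, bins 572351 to 572951), which encodes the methyltransferase of the last steps to phosphatidylcholine, had 10.9 and 12.5 in hst3 hst4, 4.57 and 6.68 in rtt109, and 6.40 and 6.75 in wild type. Both hst3 hst4 libraries exceeded the other 4, and the rtt109 libraries overlapped wild type. The log2 difference from wild type was 0.82 in hst3 hst4 (SE 0.37), which did not pass over all genes (limma, adjusted p = 0.485), and -0.25 in rtt109 (adjusted p = 0.674). The labelled bins of OPI3 cover its transcript in part: those nearer the 5′ end held 0.115 and 0.0594 in hst3 hst4, 0.0462 and 0.0224 in rtt109, and 0.0692 and 0.0304 in wild type. The bins nearer the 3′ end held 23.8 and 27.4 in hst3 hst4, 9.98 and 14.7 in rtt109, and 14.0 and 14.8 in wild type. Bins moved by the local offset gave 31.3 and 38.6 in hst3 hst4, 13.4 and 18.5 in rtt109, and 18.1 and 18.7 in wild type, with hst3 hst4 above the other 4 libraries in 11 of 11 bins. On these bins hst3 hst4 was 1.90 times wild type, with a log2 difference of 0.91 and an adjusted p of 0.324 by limma.

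CHO2 (YGR157W, Watson strand of chromosome 7, bins 802451 to 805101), the methyltransferase of the first step to phosphatidylcholine, had 6.53 and 3.59 in hst3 hst4, 3.26 and 3.44 in rtt109, and 5.30 and 6.77 in wild type. The rtt109 libraries lay below both wild type libraries, as for 48.6% of all genes, and those of hst3 hst4 overlapped wild type. With bins moved by the local offset, both rtt109 libraries were below wild type in 52 of 52 bins. Bins of 1 gene come from the same libraries and are not separate observations. Its log2 difference from wild type was -0.83 in rtt109 (SE 0.37, limma adjusted p = 0.218) and -0.30 in hst3 hst4. CHO1 (YER026C, Crick strand of chromosome 5, bins 207651 to 208501), the phosphatidylserine synthase, had 28.1 and 19.0 in hst3 hst4, 12.7 and 13.7 in rtt109, and 15.4 and 26.9 in wild type. The rtt109 libraries were below those of wild type, whose own values differed more than the groups did, and the log2 differences were 0.18 in hst3 hst4 and -0.62 in rtt109. PSD1 (YNL169C, Crick strand of chromosome 14, bins 316201 to 317701), the mitochondrial phosphatidylserine decarboxylase that makes phosphatidylethanolamine, had 3.26 and 3.79 in hst3 hst4, 1.07 and 2.24 in rtt109, and 3.50 and 3.14 in wild type. It was the member with the lowest rtt109 value relative to wild type, at 0.499 times the wild type mean. Both rtt109 libraries were below wild type, in 29 of 29 bins when moved by the local offset. The rank of PSD1 as lowest was lost without rtt109 replicate 1. PSD1 then had a log2 difference of -0.55, with CHO2 at -0.79 and CHO1 at -0.57. The rank was also lost without wild type replicate 1, with PSD1 at -0.9927, OPI1 at -1.076, CHO1 at -1.026 and CHO2 at -1.004. Without rtt109 replicate 2 the log2 difference of PSD1 was -1.58. The log2 difference of -1.07 (SE 0.38) in rtt109 did not pass over all genes (limma, adjusted p = 0.122), and that of hst3 hst4 was 0.08.

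ITR1 (YDR497C, Crick strand of chromosome 4, bins 1443751 to 1445501), the main inositol transporter, had 16.7 and 22.5 in hst3 hst4, 8.12 and 16.1 in rtt109, and 13.1 and 15.4 in wild type. Both hst3 hst4 libraries exceeded both wild type libraries, with a log2 difference of 0.45, and the rtt109 libraries lay on both sides of them, with -0.31 (SE 0.38). CKI1 (YLR133W, Watson strand of chromosome 12, bins 408451 to 410201), the choline kinase that opens the Kennedy route, had 0.940 and 1.13 in hst3 hst4, 0.538 and 0.926 in rtt109, and 1.08 and 0.874 in wild type. Its groups overlapped in both comparisons with wild type, with log2 differences of 0.08 in hst3 hst4 and -0.43 in rtt109.

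**Figure D3:**
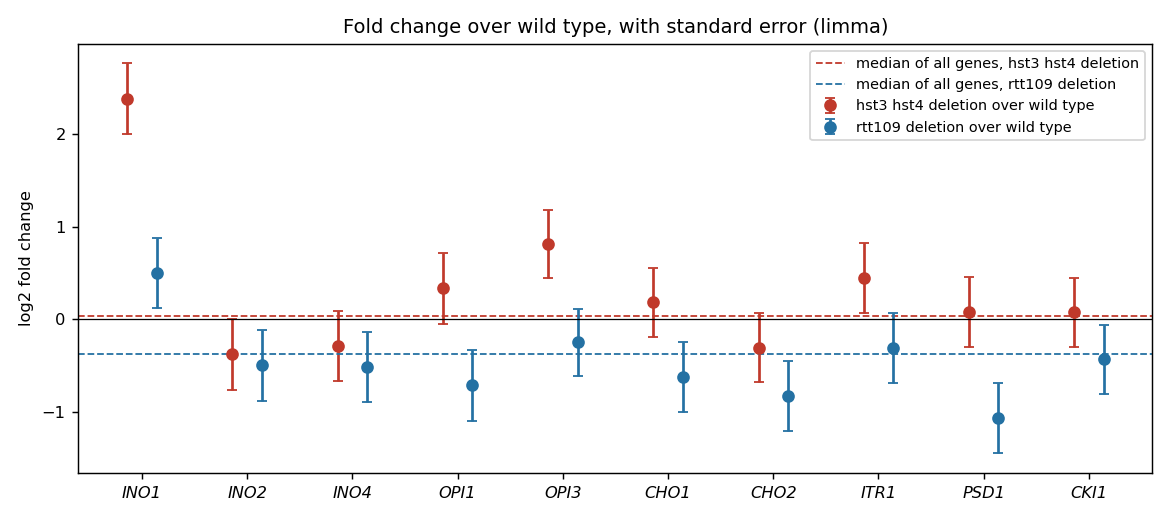
Log2 fold change over wild type (vertical axis) of the 10 genes in hst3 hst4 and in rtt109, with bars of 1 standard error from limma and dashed lines at the median of all 5211 genes. INO1 in hst3 hst4 lies at 2.39 and the other members between -0.38 and 0.82 there, and in rtt109 those others lie between -1.07 and -0.25.

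Of the 9 members other than INO1, 0 passed an adjusted p of 0.05 in hst3 hst4 against wild type, where 2.48% of all genes passed, 2.34% as higher and 0.134% as lower (limma, Benjamini-Hochberg over 5211 genes). OPI3 alone had an unadjusted p under 0.05, 1 of 9, a rate that 7.98% of all genes reached. OPI3 and ITR1 had both hst3 hst4 libraries above both wild type libraries, 2 of 9 against 20.9% of all genes, and 0 of 9 were below, against 8.90%. The median log2 difference of the 9 was 0.08, beside 0.04 over all genes. In rtt109 against wild type 0 of 9 passed, where 3.44% of all genes passed, 2.49% as higher and 0.940% as lower. CHO2 and PSD1 had an unadjusted p under 0.05, 2 of 9 against 20.0% of all genes. INO2, INO4, CHO1, CHO2 and PSD1 were below wild type in both rtt109 libraries, 5 of 9 against 48.6% of all genes, which is near that background, and 0 of 9 were above, against 11.5%.

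All 9 log2 differences were negative in rtt109, with a median of -0.51 beside -0.37 over all genes, but centring each library on its median turned OPI3 to 0.050, and the columns normalized to 1 turned OPI3 to 0.17 and ITR1 to 0.11. Relative to the median of all genes, PSD1 stood at -0.70 and CHO2 at -0.46 in rtt109, and OPI3 stood at 0.78 in hst3 hst4. The count of genes passing over the whole table, 129 in hst3 hst4 and 179 in rtt109, changed with single libraries left out. In both comparisons it fell most without 1 of the rtt109 libraries. The log2 differences of hst3 hst4 from wild type do not use these libraries, which enter that comparison through the estimate of spread shared by all groups. Without wild type replicate 1 the count in hst3 hst4 was 80, and without wild type replicate 2 that in rtt109 was 84. In both comparisons 0 of the 9 members passed with any library left out.

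Between the mutants, all 9 members had a higher mean in hst3 hst4 than in rtt109 on the spike-in scale. The median log2 difference was 0.76, beside 0.41 over all genes, and 7 of 9 had both hst3 hst4 libraries above both rtt109 libraries, against 51.1% of all genes, and 0 of 9 had both below, against 4.41%. Since the members were proposed with this contrast in view, these are values without a test. PSD1 had the highest log2 difference of the 9, at 1.15, followed by OPI3 at 1.07 and OPI1 at 1.05. INO2 and INO4 had overlapping values, with 0.12 and 0.23, and relative to the median of all genes they were lower in hst3 hst4, at -0.29 and -0.18. The 2 comparisons with wild type share its libraries.

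Coverage per bin is a value per length, so the levels of the genes can be set in order, with the limit that the labelled bins miss part of INO1 and OPI3. In wild type the order of means was CHO1, ITR1, OPI3, CHO2, INO4, PSD1, OPI1, INO2, CKI1 and INO1, and in both mutants it was the same but for OPI1 above PSD1. In wild type the libraries of CHO1 and ITR1, of OPI3 and CHO2, of CHO2 and INO4, and of PSD1 and OPI1 overlapped, and the other neighbours were separate. In hst3 hst4 and in rtt109, ITR1, OPI3 and CHO2 were separate from each other, while CHO1 overlapped ITR1 and CHO2 overlapped INO4. INO1 lay below the libraries of its neighbour CKI1 in rtt109 and in wild type, at 0.131 to 0.335, and among those of CKI1 in hst3 hst4. With the moved bins, OPI3 had the highest mean of the 10 in hst3 hst4 and rtt109, at 34.9 and 15.9, and came second to CHO1 in wild type, at 18.4. On those bins INO1 in hst3 hst4, at 1.31 and 1.62, lay above both CKI1 libraries, at 0.932 and 1.13, and within the spread of INO2, at 0.989 and 1.83, while in rtt109 and wild type it had the lowest mean of the 10.

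Lists of 46 other genes of the pathway, in 5 groups, were set beside the members, and 44 were tested. GIT1, a transporter of glycerophosphoinositol, fell under the filter on low values, and INO80, a chromatin remodeller subunit, had no value. In neither mutant did any of the 44 pass over all genes by limma, so 0 rose and 0 fell in each list. Of all genes, 2.48% passed in hst3 hst4 and 3.44% in rtt109, so 0 of 44 is near that background. At an unadjusted p under 0.05 there were 0 of 44 in hst3 hst4, against 7.98% of all genes, and in rtt109 1 of 44 was higher and 8 were lower, 9 of 44 against 20.0% of all genes, which is near that background. The median log2 difference of the 44 was -0.02 in hst3 hst4, beside 0.04 over all genes, and -0.52 in rtt109, beside -0.37.

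The 6 genes of the Kennedy route had the lowest medians, at -0.10 in hst3 hst4 and -0.84 in rtt109, beside 0.04 and -0.37 over all genes. In rtt109, 6 of 6 were below 0 and 4 of 6 had an unadjusted p under 0.05, against 20.0% of all genes, with EKI1 at 0.0486 (limma). CKI1, which opens this route, is counted among the members and is not in the list. It had a log2 difference of -0.43 in rtt109 (limma, unadjusted p = 0.2545). The list was chosen with earlier results of these data known, so these counts are a description. EPT1, the ethanolaminephosphotransferase that ends the ethanolamine branch, had 1.81 and 2.04 in hst3 hst4, 0.984 and 1.44 in rtt109, and 2.58 and 2.68 in wild type. Its libraries in both mutants were below those of wild type, with a log2 difference of -1.11 in rtt109 (SE 0.37, limma adjusted p = 0.0901) and -0.44 in hst3 hst4. CPT1, the cholinephosphotransferase, had 8.03 and 6.32 in hst3 hst4, 3.86 and 2.95 in rtt109, and 4.92 and 10.5 in wild type. Its log2 difference in rtt109 was -1.08 (limma adjusted p = 0.123), and it passed at -1.62 without wild type replicate 1, the lower of its wild type libraries (limma adjusted p = 0.0245). PCT1, which makes CDP-choline, had a log2 difference of -0.25 in hst3 hst4.

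The 10 genes of the CDP-diacylglycerol route and phosphatidic acid synthesis had medians of -0.01 in hst3 hst4 and -0.56 in rtt109. Over all genes the medians were 0.04 and -0.37. In rtt109, 9 of 10 were below 0, as was the median of all genes. The acyltransferase ALE1 had 2.18 and 1.96 in hst3 hst4, 1.09 and 1.28 in rtt109, and 1.93 and 2.78 in wild type, a log2 difference of -0.93 in rtt109 (limma adjusted p = 0.159). SLC1, another acyltransferase, stood at -0.72 in rtt109, and in hst3 hst4 TAM41, a mitochondrial CDP-diacylglycerol synthase, stood at 0.38 and PGS1, of the cardiolipin branch, at 0.24.

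The 7 tested genes of inositol supply and turnover had medians of -0.06 in hst3 hst4 and -0.24 in rtt109. Over all genes the medians were 0.04 and -0.37. Of the 7, 4 were below 0 in hst3 hst4 and 6 in rtt109. GDE1, a glycerophosphocholine phosphodiesterase that releases choline, was the exception in rtt109. It had 0.728 and 0.696 in hst3 hst4, 0.814 and 1.22 in rtt109, and 0.450 and 0.401 in wild type, so that the libraries of both mutants were above those of wild type. Its log2 differences were 0.67 in hst3 hst4 (limma adjusted p = 0.745) and 1.13 in rtt109 (limma adjusted p = 0.0818), and in rtt109 it passed at 1.43 with libraries centred on their medians and at 1.52 with the columns normalized to 1 (limma adjusted p = 0.0259 and 0.0109). INM2, an inositol monophosphatase, stood at 0.48 in hst3 hst4, and KCS1, an inositol polyphosphate kinase, at -0.62 in rtt109.

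The 11 tested regulators, among them chromatin factors and enzymes of phosphatidic acid turnover, had medians of -0.03 in hst3 hst4 and -0.41 in rtt109. SCS2, the membrane protein that tethers Opi1 to the endoplasmic reticulum, had 7.31 and 10.7 in hst3 hst4, 3.16 and 6.16 in rtt109, and 8.47 and 8.80 in wild type, a log2 difference of -0.96 in rtt109 (limma adjusted p = 0.166). RPD3, a histone deacetylase, stood at -0.84 in rtt109, and in hst3 hst4 IRE1, the sensor of the unfolded protein response, stood at -0.38 and DGK1, the diacylglycerol kinase, at -0.26. The 10 genes of fatty acid synthesis and activation had medians of 0.04 in hst3 hst4 and -0.33 in rtt109. The elongase ELO3 had 12.6 and 13.8 in hst3 hst4, 6.89 and 7.88 in rtt109, and 12.1 and 21.4 in wild type, a log2 difference of -1.12 in rtt109 (limma adjusted p = 0.0913), and it passed at -1.53 without wild type replicate 1 (limma adjusted p = 0.0351). ELO2 stood at -0.67 in rtt109, and in hst3 hst4 ELO1 stood at 0.65 and FAS2, a subunit of fatty acid synthase, at 0.40.

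**Figure D4:**
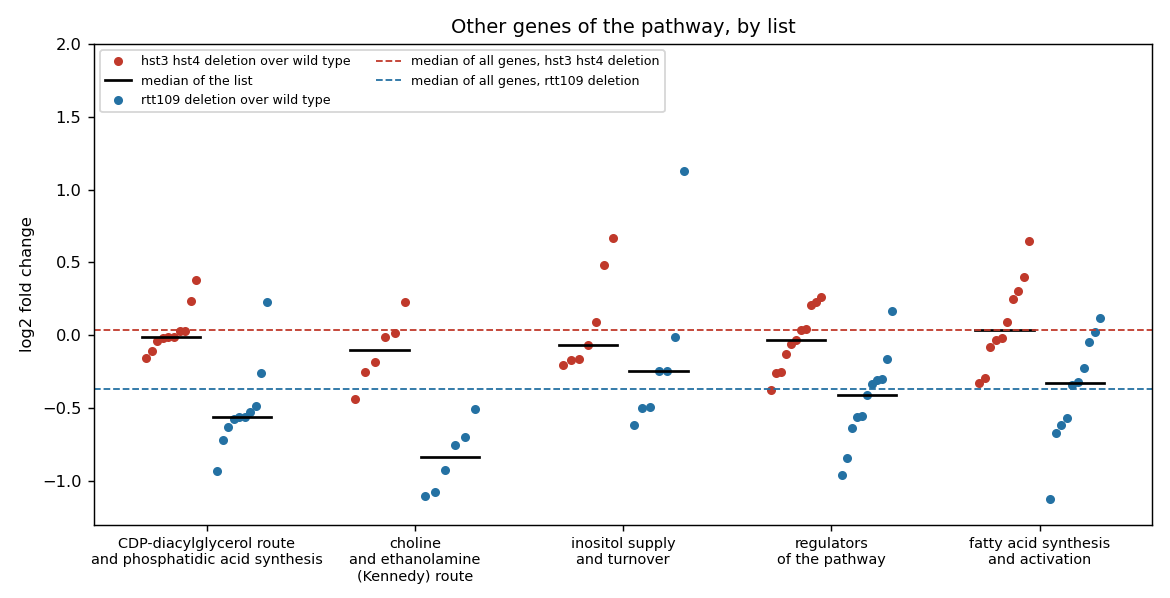
Log2 fold change over wild type (vertical axis) of the 44 tested genes in 5 lists, with each point a gene, black bars the list medians and dashed lines the medians of all genes. In hst3 hst4 the points spread around 0 between -0.44 and 0.67, and in rtt109 39 of 44 lie below 0, with GDE1 at 1.13 the highest. The median of all genes is also below 0 in rtt109, at -0.37.

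The 5 genes whose pattern over the 6 libraries was most like that of INO1, by Pearson's r on the log2 scale among 729 genes of sufficient spread, were YEL073C (r = 0.987), BNA2 (0.964), PDC5 (0.961), HPF1 (0.956) and PAU17 (0.950). They were picked for this likeness, so they get no test, and the points share the 3 groups and the scaling of each library. YEL073C, an ORF of unknown role, had 1.84 and 2.16 in hst3 hst4, 0.545 and 0.845 in rtt109, and 0.701 and 0.555 in wild type. BNA2, of the synthesis of NAD from tryptophan, had 0.630 and 0.880 in hst3 hst4, 0.214 and 0.219 in rtt109, and 0.124 and 0.0879 in wild type. HPF1, a cell wall mannoprotein, had 2.49 and 2.35 in hst3 hst4, 0.825 and 0.905 in rtt109, and 0.529 and 0.613 in wild type. In each of these both hst3 hst4 libraries were at more than any other library. PDC5, a pyruvate decarboxylase, and PAU17, of the seripauperin family, have related genes with which reads may be shared, and their values are uncertain. Sharing of reads was not tested for any of the 5 genes. With the moved bins YEL073C, HPF1 and BNA2 were again among the 5, with SOM1 and THI7 as the others. Of the 5 genes, YEL073C held 1 CATGTG match within 300 bases before its start codon and the others 0. In the genome 7.14% of such windows hold a match.

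**Figure D5:**
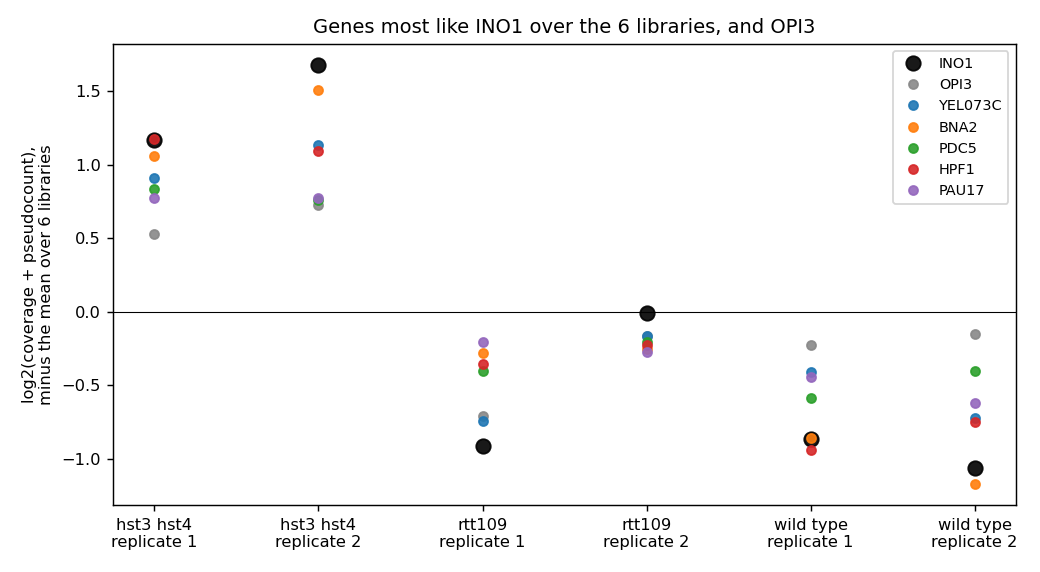
Log2(coverage + pseudocount) minus the mean over the 6 libraries (vertical axis) of INO1, OPI3 and the 5 genes most like INO1, in each library (horizontal axis). All 7 genes lie above 0 in both hst3 hst4 libraries and below 0 in the other 4.

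Among the members, r with INO1 over the 6 libraries was 0.911 for OPI3, 0.734 for ITR1, 0.569 for OPI1, 0.495 for CKI1, 0.449 for PSD1 and 0.322 for CHO1. INO2, CHO2 and INO4 had r of -0.01, -0.11 and -0.15. INO1 was chosen for its difference between the mutants, so these r are a description with no test. The limit on spread used to pick the genes most like INO1 was not applied to the members. OPI3 and ITR1 fall under that limit, with SDs of 0.532 and 0.487 beside 1.17 for INO1. On the strand opposite to INO1, coverage was 0.0297 and 0.0443 in hst3 hst4, 0.0122 and 0.0187 in rtt109, and 0.0517 and 0.00788 in wild type. As a share of both strands this was 2.21% and 2.67% in hst3 hst4, 5.27% and 3.76% in rtt109, and 20.5% and 4.37% in wild type. Over all genes the median share was 0.872% and 1.74% in hst3 hst4, 1.16% and 0.593% in rtt109, and 2.00% and 0.348% in wild type, so replicate 1 of wild type was the library with the highest share in both. The other 9 members had opposite-strand shares between 0.0320% and 2.32%.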

How the data were processed

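Polyadenylated RNA of 6 libraries was sequenced after mixing with fission yeast total RNA and stranded library preparation, per the labels' protocols. The authors deposited strand-specific coverage (a signal) for 240976 bins of 50 bases; per the file headers it was normalized to the spike-in, and because the spike was added to total RNA, values are per mass of RNA, not per cell. A second deposited set is normalized to 1, per the file headers. Base calling used CASAVA 1.7.0, per the submitters' processing notes; for the aligner and the budding yeast build, the sources used here give no name. Bins holding a letter (11670) were not used. Names came from RefSeq R64, which matched 5871 of 6525 ORFs.

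A gene's value was the mean sense coverage over the inner bins labelled as its ORF, without the first and last bin, introns and bins shared with another ORF of the strand. Values were taken as log2(value + 0.0587), the pseudocount being percentile 5 of values above 0. The lowest 10% of genes by mean (580) were left out. One fit over all 6 libraries (limma 3.58.1, R 4.3.3; checked on simulated data) compared each mutant with wild type, with Benjamini-Hochberg adjustment over 5211 genes at 0.05; prior degrees of freedom were 37.7 beside 3 residual. Groups came from the labels. The alternatives were other pseudocounts, no filter, other scalings, the median over bins, all bins of the ORF, a replicate block, leaving out each library and, chosen after seeing the data, moved bins. INO1 was not tested, and no member was tested between the mutants.

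The members and gene lists were chosen with earlier results of these data known. The text names all members, the 2 genes with the lowest p in each list (none passed), and the 5 genes most correlated with INO1 among those with an SD of at least 0.5 times its own. The deleted genes and mating-type genes were read as checks.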

Additional observations from a re-analysis of the deposited data

How the results depend on the processing

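In hst3 hst4 and in rtt109 against wild type, 0 of the 9 members passed under every alternative run, except that OPI3 was below the filter with the median over the inner bins, where 0 of 8 passed. For the 44 pathway genes the count in hst3 hst4 was 0 throughout, and in rtt109 it was 1 with libraries centred on their medians, 1 with the columns normalized to 1 and 0 to 2 with 1 library left out. Over all genes, the count in hst3 hst4 was 1 with a 10 times larger pseudocount, 2 with no filter, 54 with centred libraries and 2 to 123 with 1 library left out. In rtt109 it was 2 with the larger pseudocount, 4 with no filter, 101 with the replicate block and 3 to 251 with 1 library left out, where the lone library of a group was assumed to vary like the other groups. Higher and lower calls split as 122 and 7 in hst3 hst4, 51 and 3 with centred libraries and 93 and 3 with the columns normalized to 1; in rtt109 they split as 130 and 49, 153 and 11, and 247 and 10. The prior degrees of freedom, 37.7 in the main fit, were 3.72 with the larger pseudocount, 2.4 with no filter and 4.42 without 1 of the rtt109 libraries. The cause of these shifts was not tested.

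Same-numbered deviations from group means correlated over genes at 0.222 for hst3 hst4 with rtt109, 0.06 for hst3 hst4 with wild type and -0.23 for rtt109 with wild type. These values cannot settle whether libraries of the same replicate number were handled together. The replicate block called 0 members, 0 pathway genes and, in hst3 hst4, 94 genes.

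The INO1 difference of hst3 hst4 minus rtt109 was 0.95 with the larger pseudocount and 1.43 to 2.33 with 1 library left out. That of hst3 hst4 minus wild type was 1.12 with the larger and 2.75 with the smaller pseudocount. Uncalled log2 differences changed sign in 14 cases. In rtt109, OPI3 was 0.050 with centred libraries and 0.17 with the columns normalized to 1, and ITR1 was 0.11 with the columns normalized to 1. The others came from leaving out 1 library, over which OPI3 ranged from -0.52 to 0.023 and ITR1 from -0.80 to 0.18 in rtt109. In hst3 hst4, INO2 ranged from -0.82 to 0.065, INO4 from -0.75 to 0.18, OPI1 from -0.026 to 0.70, CHO1 from -0.22 to 0.59, CHO2 from -0.73 to 0.12, PSD1 from -0.023 to 0.19 and CKI1 from -0.068 to 0.22 in this way. Read depth is unknown, so no counting error can be given.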
